A study of Mus musculus with 2 samples.

Results

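Transcription factor genes of mammary and other epithelia were examined for open chromatin, namely Elf5, Elf3, Ehf, Gata3, Esr1, Foxa1, Tfap2c, Grhl2, Trp63 and Sox9. The rule listed them by name, and they are 10 of the 22350 protein-coding genes of the annotation. A DNaseI-seq peak was assigned to a gene if it overlapped the gene body or lay within 50 kb of it. By this rule the genes held 15 of the 17784 peaks listed for vehicle and 17 of the 22600 peaks listed after 2 h of TGFβ, and no peak was counted for more than 1 of them. Peaks lay near 7 of the 10 genes, while Foxa1, Tfap2c and Trp63 had none in either list.

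The cells were NMuMG, a line of epithelial cells from normal mouse mammary gland that undergo an epithelial-to-mesenchymal transition when given TGFβ. Cells of both groups were held without serum and insulin for 6 h, and then received either TGFβ1 at 5 ng/ml or its vehicle for 2 h. The labels describe the vehicle as a hydrochloric acid and albumin solution in one field and as a Tris-HCl and albumin solution in another, and they name no mutation, transgene or animal age for these cultures. The series text speaks of duplicates, but the data held 1 peak list per condition, which leaves the replicate error unmeasured and allows no test of the treatment. A peak is called shared when it overlaps a peak of the other list by at least 1 bp, and vehicle-only or TGFβ-only when it does not. A peak missing from a list did not pass the authors' threshold there, which does not mean that the chromatin gave no signal. Promoter peaks lie within 1000 bp of an annotated transcript start, and all others are distal. Peaks carry a score without unit. Its values were 540 at the lowest and 1000, a ceiling, at the highest in each list, and it was read only as a rank within a list.

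Elf5, Elf3 and Ehf belong to the epithelium-specific ETS family. Elf5 drives the milk-producing alveolar fate, and Elf3 and Ehf act in many simple and glandular epithelia. Gata3, Esr1 (estrogen receptor alpha) and the pioneer factor Foxa1 work together in hormone-sensing luminal cells, and Tfap2c, an AP-2 factor, acts in luminal and progenitor cells. Grhl2, a grainyhead-like factor, maintains epithelial adhesion genes such as E-cadherin, Trp63 is the defining factor of the basal layer, and Sox9 marks luminal progenitors. DNaseI cuts DNA where nucleosomes have been displaced, at promoters and enhancers.

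The sequences below are the central 200 bp of the unshared peaks around which the differences between the lists turned: start sites of Elf5 and Grhl2 with a peak in a single condition, and the highest-scoring distal unshared peak of Elf3, Ehf and Grhl2. They are given 5′ to 3′ on the plus strand of mm9. Capitals mark matches, on either strand, to short consensus strings of transcription factors: TGANTCA for AP-1, CAGACA for SMAD proteins, GCCNNNGGC for the AP-2 family, AGATAA for the family of Gata3 and ACAATG for that of Sox9.
Elf5, TGFβ-only at its own start site, chr2:103251646-103251845: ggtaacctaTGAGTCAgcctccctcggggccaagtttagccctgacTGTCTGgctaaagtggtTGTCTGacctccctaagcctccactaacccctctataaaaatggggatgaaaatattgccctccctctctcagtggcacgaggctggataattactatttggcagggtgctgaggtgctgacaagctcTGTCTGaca
Elf3, TGFβ-only, distal, chr1:137162379-137162578: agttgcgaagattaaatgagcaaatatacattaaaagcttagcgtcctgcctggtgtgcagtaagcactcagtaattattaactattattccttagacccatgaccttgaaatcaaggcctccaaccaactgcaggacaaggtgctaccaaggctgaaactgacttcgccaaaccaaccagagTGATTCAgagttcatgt
Ehf, TGFβ-only, intronic, chr2:103111700-103111899: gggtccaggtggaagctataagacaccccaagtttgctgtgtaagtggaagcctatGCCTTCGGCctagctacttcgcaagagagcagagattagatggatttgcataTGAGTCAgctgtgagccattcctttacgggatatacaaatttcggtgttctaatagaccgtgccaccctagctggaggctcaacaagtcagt
Ehf, vehicle-only, intronic, chr2:103133989-103134188: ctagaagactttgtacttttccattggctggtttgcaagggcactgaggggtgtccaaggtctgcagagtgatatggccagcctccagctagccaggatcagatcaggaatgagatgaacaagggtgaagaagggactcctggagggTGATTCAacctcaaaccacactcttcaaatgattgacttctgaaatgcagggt
Grhl2, TGFβ-only, coding exon, chr15:37209188-37209387: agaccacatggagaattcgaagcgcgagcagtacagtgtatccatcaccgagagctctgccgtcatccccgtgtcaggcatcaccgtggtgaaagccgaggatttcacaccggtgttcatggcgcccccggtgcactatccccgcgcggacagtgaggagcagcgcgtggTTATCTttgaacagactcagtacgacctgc
Grhl2, vehicle-only at an internal start site, chr15:37247810-37248009: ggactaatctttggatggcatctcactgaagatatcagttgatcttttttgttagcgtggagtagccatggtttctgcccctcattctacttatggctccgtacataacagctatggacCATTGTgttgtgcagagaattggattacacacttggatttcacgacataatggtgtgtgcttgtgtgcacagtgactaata
The Elf5 sequence ended on the first base of the outermost annotated Elf5 transcript. It held an AP-1 match and 3 SMAD matches within 200 bp, and the TGFβ-only sequences of Elf3 and Ehf each held an AP-1 match as well. The vehicle-only Ehf sequence, which was chosen after its values had been seen, also held an AP-1 match. Neither Grhl2 sequence held one.

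Across the 10 genes, 10 peaks were shared, 5 were vehicle-only and 7 were TGFβ-only. The TGFβ list held more peaks than the vehicle list at Elf5 (2 and 1), Elf3 (5 and 3) and Esr1 (1 and 0), and fewer at Ehf (5 and 7). They were equal at Gata3 (1 and 1), Grhl2 (2 and 2) and Sox9 (1 and 1). Thus 30.0% of these genes had more TGFβ peaks and 10.0% had fewer, against 33.7% and 13.2% of all protein-coding genes. The excess of TGFβ peaks depended on the length of the lists: when the TGFβ list was cut by its score to the length of the vehicle list, the same genes held 15 vehicle and 13 TGFβ peaks, with 7 and 5 of them unshared. The reporting summary of the study lists more mapped reads for vehicle than for TGFβ, and the part of depth in these counts was not tested.

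**Figure D1:**
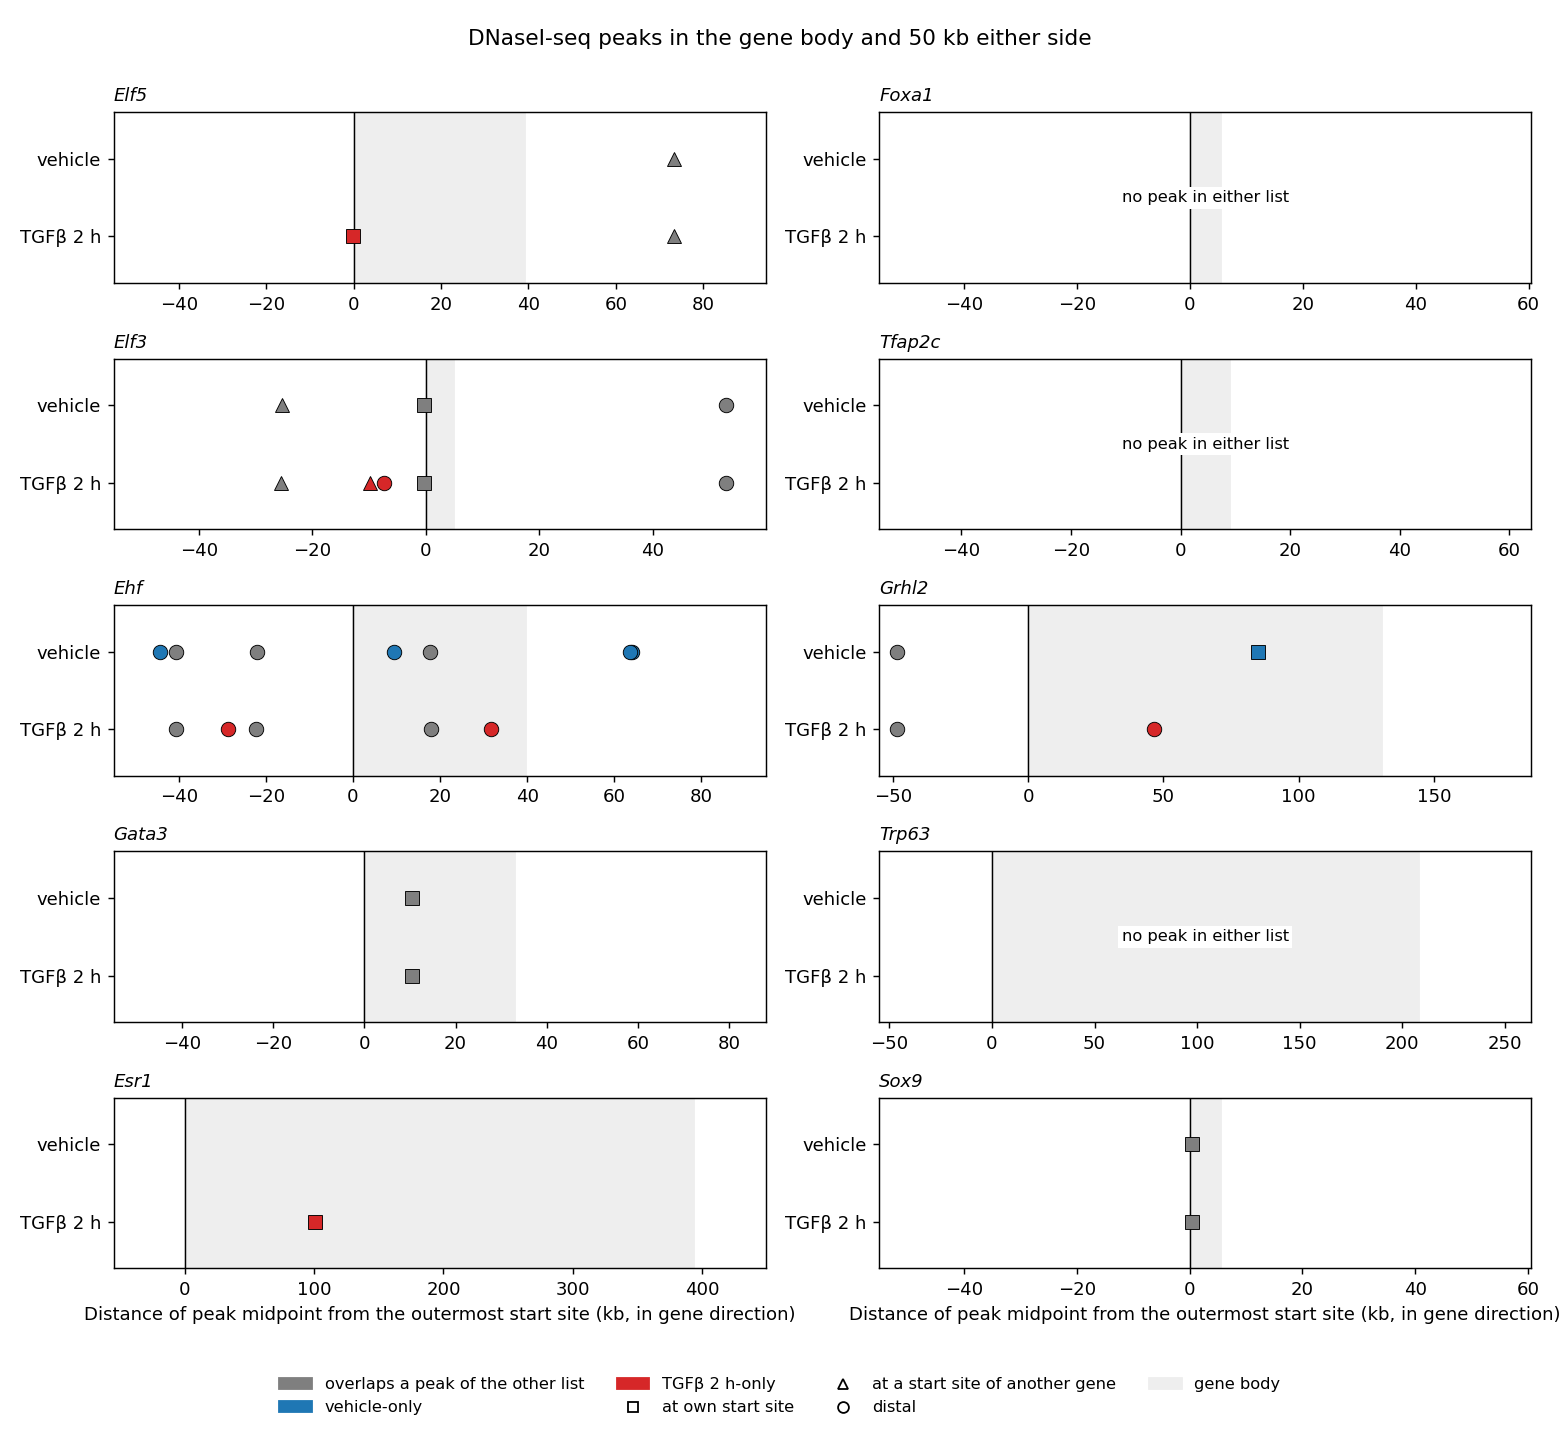
Position of every peak (points, at the peak midpoint) around each of the 10 genes, as distance in kb from the outermost start site in the direction of transcription, with the vehicle list in the upper row and the TGFβ 2 h list in the lower row of each panel. Elf5 has a red TGFβ-only square at its start site, Ehf has 4 blue vehicle-only and 2 red TGFβ-only points and none at a start site, and the Foxa1, Tfap2c and Trp63 panels are empty.

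**Figure D2:**
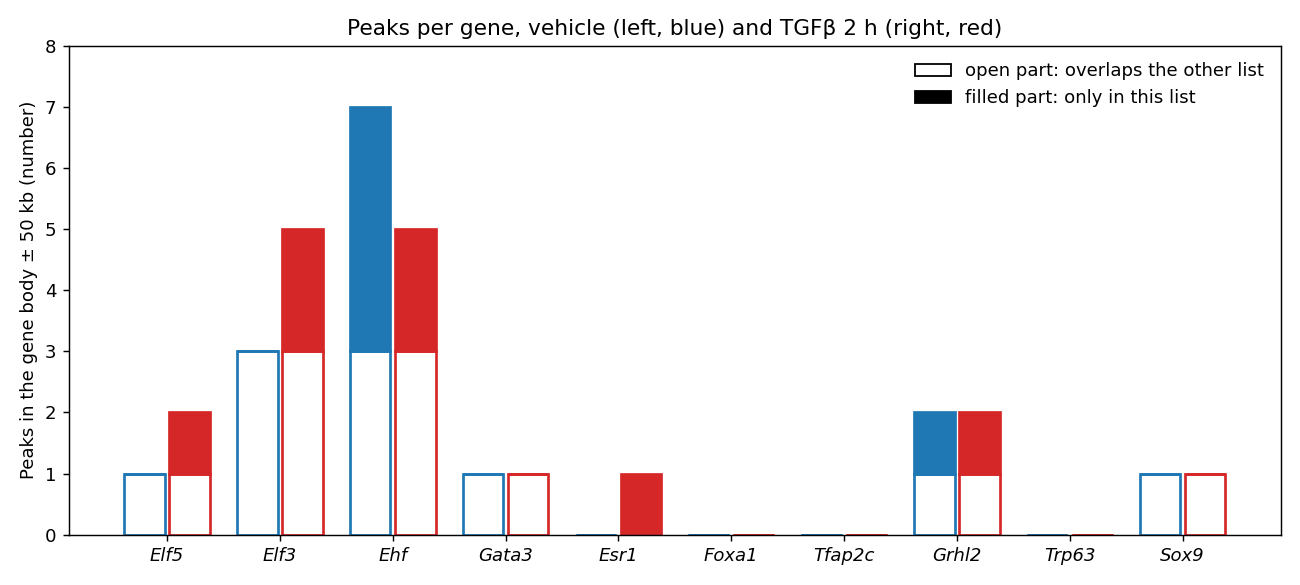
Number of peaks within 50 kb of each gene body in the vehicle list (left bar) and the TGFβ 2 h list (right bar), with 1 list per condition and therefore no error bars. Filled parts are peaks found in that list only: 4 of 7 vehicle peaks at Ehf, and 2 of 5 TGFβ peaks at Elf3.

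Elf5 (ENSMUSG00000027186.8, chr2:103251845-103291146, plus strand) had a peak at its own promoter in the TGFβ list and none there in the vehicle list. This TGFβ-only peak, chr2:103251335-103252156, was 822 bp wide and contained the outermost start site, where a protein-coding transcript begins. Its score of 718 exceeded that of 29.2% of the TGFβ list, so it ranked in the lower part of that list, and the nearest vehicle peak was 63.4 kb away. The other Elf5 peak lay at the start of the neighbouring gene Cat, which encodes catalase, and was nearly alike in both lists. It spanned 775 bp at score 1000 in vehicle and 779 bp at score 1000 after TGFβ. Within the Elf5 window, the 2 lists thus differed at Elf5 itself and not at its neighbour.

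Elf3 (ENSMUSG00000003051.7, chr1:137150151-137155049, minus strand), which is short and has a single annotated start site, had that start site inside a broad peak in both lists. The vehicle peak was 1089 bp wide and the TGFβ peak 1113 bp, both at the score ceiling. Upstream of the gene the lists diverged. A TGFβ-only distal peak of 569 bp, chr1:137162194-137162762 with score 751, lay 7.43 kb upstream in an exon of the overlapping gene model Gm16606. Another TGFβ-only peak of 514 bp, chr1:137164676-137165189, lay 9.88 kb upstream in an intron of the aminopeptidase gene Rnpep and reached the ceiling of 1000. The nearest vehicle peaks were 6.35 kb and 8.83 kb from them. The latter peak counted as a promoter peak because a processed, non-coding Rnpep transcript starts 697 bp outside it, and it would be distal if protein-coding starts alone were used. Further shared peaks lay at the main Rnpep start, with a width of 1210 bp in vehicle and 775 bp after TGFβ, and at an intergenic site of 95 bp with the same ends in both lists and scores of 1000 and 788. In the whole lists, 49 intervals were identical in this way.

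Ehf (ENSMUSG00000012350.8, chr2:103103590-103143435, minus strand) had the most vehicle peaks of the 10 genes and, with Elf3, the most TGFβ peaks, and 3 in each list were shared. All 7 vehicle and all 5 TGFβ peaks were distal, and none lay at any of the 9 annotated Ehf start sites. No other protein-coding gene overlapped its window. Vehicle-only peaks numbered 4. The highest-scoring of them, chr2:103133881-103134296, was 416 bp wide with score 979 and lay in an intron 9.35 kb downstream of the outermost start, 7.82 kb from the nearest TGFβ peak. Another, chr2:103187647-103187944, was 298 bp wide with score 758 and lay 44.4 kb upstream. The remaining pair, chr2:103079282-103079599 and chr2:103079684-103079771, lay side by side past the 3′ end and scored 561 each, above 3.39% of the vehicle list.

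TGFβ-only peaks at Ehf numbered 2 and ranked low as well. An intronic peak of 477 bp, chr2:103111561-103112037, lay 31.6 kb downstream of the outermost start with score 666, above 22.7% of its list. A 385 bp peak, chr2:103171900-103172284, lay 28.7 kb upstream with score 572, above 6.41% of its list. The 3 shared Ehf peaks are given with their ranks, each within its own list. The intronic peak at chr2:103125023-103126478 was the widest peak of the set in vehicle, at 1456 bp and the score ceiling, and in the TGFβ list it was 1001 bp wide with score 621. It stood among the ceiling peaks of the vehicle list and above 15.5% of the TGFβ list. The upstream shared pairs were 920 bp and 852 bp wide with scores of 886 and 862, above 38.7% and 44.3% of their lists, and 481 bp and 563 bp wide with scores of 728 and 610, above 24.7% and 13.6%. Ehf and Elf5 are neighbours on chromosome 2, with 108 kb between their gene bodies, and the TGFβ list held more peaks at Elf5 and fewer at Ehf.

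The hormone-sensing luminal factors had few peaks. Gata3 (ENSMUSG00000015619.9, chr2:9778705-9811661, minus strand) had a single shared intronic peak, 671 bp wide with score 1000 in vehicle and 564 bp wide with score 994 after TGFβ. It lay 10.5 kb and 10.4 kb downstream of the outermost start and within 1000 bp of an internal start of a protein-coding transcript, 587 bp and 734 bp from the nearer peak edge. The outermost Gata3 start itself had no peak in either list.

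Esr1 (ENSMUSG00000019768.9, chr10:5340927-5734948, minus strand), the longest of these genes at 394 kb, had no vehicle peak and 1 TGFβ-only peak. That peak, chr10:5633926-5634209, was 284 bp wide with score 591, above 10.1% of the TGFβ list, and lay over a coding exon 101 kb downstream of the outermost start. It counted as an own-start peak because a processed transcript begins 36 bp from its edge, and the nearest vehicle peak was 279 kb away. Foxa1 (ENSMUSG00000035451.6, chr12:58641618-58647108) had no peak in its window, and the nearest peak was 315 kb from its start in each list. Like 7 of the 10 genes, and beside 54.6% of all protein-coding genes, these 3 had no peak at the outermost start in either list.

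Tfap2c (ENSMUSG00000028640.5, chr2:172375093-172384122, annotated as Tcfap2c) also had no peak in its window. The nearest peak was 94.1 kb from its outermost start in vehicle and 71.5 kb after TGFβ. Trp63 (ENSMUSG00000022510.8, chr16:25683849-25892188), the basal-layer factor, had none across a window of 308 kb, and the nearest peaks were 152 kb and 151 kb from its outermost start. Members without a peak were 3 of 10, beside 22.6% of all protein-coding genes.

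Grhl2 (ENSMUSG00000022286.9, chr15:37162791-37293324, plus strand) had 2 peaks in each list, 1 within the gene, at a different place in each list, and 1 upstream that was shared. The vehicle-only peak, chr15:37247453-37248366, was 914 bp wide with score 685 and covered the start of an internal processed transcript 85.1 kb downstream of the outermost start. The TGFβ-only peak, chr15:37209066-37209508, was 443 bp wide with score 656 and lay over a coding exon 46.5 kb downstream. Each was 37.9 kb from the nearest peak of the other list. A shared intergenic peak 48.3 kb upstream in the vehicle list was the pair with the width ratio farthest from 1, at 355 bp in vehicle and 785 bp after TGFβ, a ratio of 2.21. Its overlap covered 39.2% of the TGFβ peak, so that it was not shared when an overlap of 50% of both peaks was required. The vehicle member of this pair had a score of 550, near the floor of its list, and the TGFβ member 852. No peak of either list lay at the outermost Grhl2 start.

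Sox9 (ENSMUSG00000000567.4, chr11:112643538-112649074, plus strand) had a single broad peak over its own start in both lists. The peak was 1105 bp wide with score 817 in vehicle and 1117 bp wide with score 783 after TGFβ, and the 2 intervals overlapped by 1074 bp. The start of the non-coding RNA BC006965 on the opposite strand lay 42 bp and 73 bp outside it. Sox9 and Elf3 were the 2 members whose outermost start site carried a peak in both conditions.

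**Figure D3:**
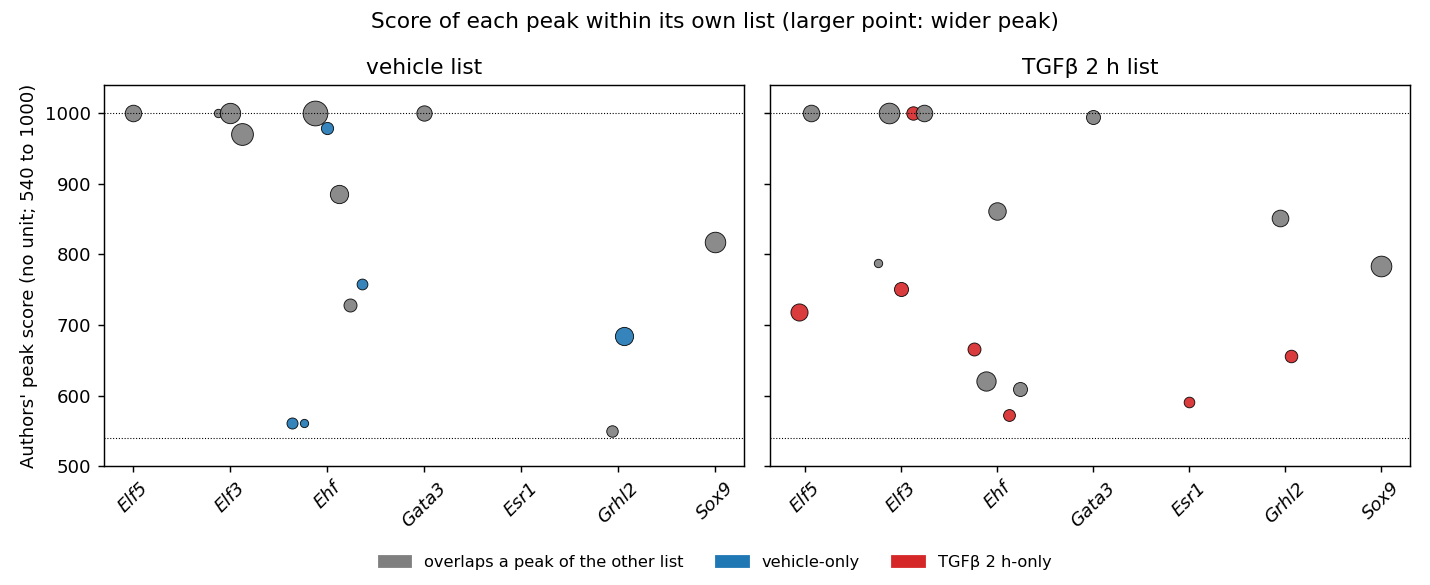
The authors' score (no unit, 540 to 1000, dotted lines at both limits) of each peak near the 7 genes that had any, in the vehicle list (left) and the TGFβ 2 h list (right), with larger points for wider peaks. Vehicle-only peaks (blue) all lie below the ceiling, between 561 and 979, and TGFβ-only peaks (red) lie between 572 and 1000 with 1 at the ceiling, the upstream Elf3 peak.

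Among the peaks near these genes, unshared peaks were narrower and ranked lower by their medians than shared peaks in both lists. The same medians over the whole lists are not given here, so the difference is not read as particular to these genes. Vehicle-only peaks had a median width of 318 bp (88 to 914) and a median score of 685, against 848 bp (95 to 1456) and 985 for the shared vehicle peaks. For TGFβ-only peaks the medians were 477 bp (284 to 822) and 666, against 782 bp (95 to 1117) and 857 for the shared ones. None of the 5 vehicle-only and 1 of the 7 TGFβ-only peaks reached the ceiling. Of the 10 shared pairs, 4 were narrower in the TGFβ list, 5 were wider and 1 was identical, so widths had no common direction. Peaks near these genes reached the ceiling in 5 of 15 cases in vehicle (33.3%, Wilson 95% interval 15.2 to 58.3) and in 4 of 17 after TGFβ (23.5%, 9.56 to 47.3), beside 53.2% and 44.3% of the whole lists. These intervals cover the counting of peaks and hold no variation between cultures or libraries.

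Of the vehicle peaks near the 10 genes, 5 of 15 were vehicle-only (33.3%, 15.2 to 58.3), beside 17.6% of the whole vehicle list. Of the TGFβ peaks, 7 of 17 were TGFβ-only (41.2%, 21.6 to 64.0), beside 33.7%. The vehicle share rested on Ehf: without this gene, 1 of 8 vehicle peaks was vehicle-only (12.5%). Among promoter peaks, 1 of 6 was vehicle-only (16.7%, 3.01 to 56.4) against 7.29% of all vehicle promoter peaks, and 3 of 8 were TGFβ-only (37.5%, 13.7 to 69.4) against 10.1% of all TGFβ promoter peaks. The 3 were those of Elf5, Esr1 and the internal Rnpep start near Elf3, and that of Elf5 alone lay at the start of a protein-coding transcript. Among distal peaks, 4 of 9 were vehicle-only (44.4%, 18.9 to 73.3) against 31.6%, and 4 of 9 were TGFβ-only (44.4%) against 55.3%. With starts of protein-coding transcripts alone, a setting added after the data had been seen, 1 of 6 promoter peaks was TGFβ-only (16.7%, 3.01 to 56.4) beside 8.01% of such peaks, and 0 of 5 were vehicle-only (0 to 43.4) beside 6.29%. These intervals contained the share of the whole list, except that of the TGFβ promoter peaks by all transcript starts.

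A TGFβ-only peak lay near 5 of the 10 genes (Elf5, Elf3, Ehf, Esr1 and Grhl2), beside 40.5% of all protein-coding genes, and a vehicle-only peak near 2 (Ehf and Grhl2), beside 25.9%. At own start sites, 3 genes (Elf3, Gata3 and Sox9) had a peak in both lists, beside 43.8% of all genes, and 4 (Ehf, Foxa1, Tfap2c and Trp63) had one in neither list, beside 51.8%. Elf5 and Esr1 had an own-start peak in the TGFβ list alone, beside 2.46% of all genes, and Grhl2 in the vehicle list alone, beside 1.85%. Those of Esr1 and Grhl2 were at internal starts of processed transcripts. When just the outermost start was counted, 2 genes had a peak there in both lists, beside 41.4%, Elf5 had one in the TGFβ list alone, beside 2.17%, and 7 had none.

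By peak density, Elf3 and Ehf stood above the other members. Per 100 kb of window, Ehf held 5.01 peaks in vehicle and 3.58 after TGFβ, more than 92.6% and 78.2% of all protein-coding genes. Elf3 held 2.86 and 4.77, more than 76.3% and 88.2% of genes. Elf5 held 0.718 and 1.44, and the values of Gata3, Grhl2 and Sox9 were 0.752, 0.868 and 0.948 in both lists. The median of the 10 genes was 0.735 in vehicle and 0.810 after TGFβ, below the median of all genes of 1.37 and 1.65, and Elf3 and Ehf were the members above it. Within gene bodies alone this turned: 5 of 10 members in vehicle and 6 of 10 after TGFβ lay above the median of all genes, which was then 0 and 0.332.

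The unshared peaks of both lists often held an AP-1 consensus, the string bound by Jun and Fos dimers. In the central 200 bp, TGANTCA was present in 5 of 7 TGFβ-only peaks (71.4%), at the Elf5 start, both Elf3 sites and both Ehf sites, beside 29.7% of all TGFβ-only peaks. It was also present in 3 of 5 vehicle-only peaks (60.0%), all 3 of them at Ehf, beside 8.73% of all vehicle-only peaks. Of the 10 shared pairs, 1 had the match, in both lists, at the upstream Ehf site with scores of 728 and 610. Shared member peaks thus stood near the whole lists, where 11.7% of shared TGFβ and 11.1% of shared vehicle peaks held it. The gap between unshared and shared member peaks depended on the window. Over whole peaks, which are wider where they are shared, the match was in 6 of 10 shared TGFβ peaks (60.0%) and 5 of 10 shared vehicle peaks (50.0%), beside the same 5 of 7 and 3 of 5 unshared peaks. In the whole lists, 26.2% and 27.2% of shared and 48.3% and 19.1% of unshared TGFβ and vehicle peaks held it somewhere along the peak. Among distal peaks alone the match was in 3 of 4 TGFβ-only and 3 of 4 vehicle-only peaks, beside 32.1% and 10.3% of such peaks in the whole lists. Among all TGFβ-only promoter peaks it was in 15.8%. With so few sites, and with 2 of the vehicle-only Ehf sites side by side, these shares are descriptions.

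Consensus strings of the factors' own families were absent from most 200 bp windows, and both their shares and their differences between the lists changed with the window searched. A grainyhead-like string (AACNGGTT) was in none of the 15 vehicle and 17 TGFβ windows, beside 1.11% of windows in each whole list, and the estrogen receptor, p63 and CTCF strings were in none either. In 400 bp windows the grainyhead-like and p63 strings were each in 1 of 15 vehicle windows (6.67%), beside 2.15% and 0.596% of the vehicle list. Over whole peaks the grainyhead-like string was in 2 of 15 vehicle peaks (13.3%), beside 4.82%. No member peak held the estrogen receptor, p63 or CTCF string along its length. The estrogen receptor, p63 and CTCF strings are rare in the whole TGFβ list as well, at 0.0221%, 0.372% and 1.69% of 200 bp windows. An ETS string (CCGGAAG), of the family that includes Elf5, Elf3 and Ehf, was in 1 of 15 vehicle windows (6.67%), at the Rnpep start, and in 0 of 17 TGFβ windows, beside 7.91% and 6.45% of all windows. The AP-2 string was at the Elf3 start and the Sox9 start in both lists and in the TGFβ-only peaks of Ehf (intronic) and Esr1, which made 2 of 15 vehicle windows (13.3%) and 4 of 17 TGFβ windows (23.5%), beside 18.3% and 16.7% in the whole lists. A forkhead string (TGTTTNC), of the family of Foxa1, was in 4 of 15 vehicle windows (26.7%; 2 at Ehf, 1 at Grhl2 and 1 at the Rnpep start) and in 1 of 17 TGFβ windows (5.88%), at Ehf, beside 11.3% and 13.2% of all windows. Over whole peaks it was in 9 of 15 vehicle (60.0%) and 9 of 17 TGFβ peaks (52.9%), beside 37.5% and 33.9%. The SOX string was in 3 of 15 vehicle windows (20.0%; 1 at Ehf and 2 at Grhl2) and in no TGFβ window, beside 5.83% and 7.08%, but over whole peaks it was in 4 of 15 (26.7%) and 4 of 17 (23.5%), beside 20.6% and 19.5%. The GATA string was in 2 of 9 distal TGFβ windows (22.2%), at a shared Ehf site and in the printed Grhl2 exon, and in no vehicle window, beside 7.77% of all distal TGFβ and 8.38% of all distal vehicle windows. In 400 bp windows it was in 3 of 9 distal peaks of each list (33.3%), beside 16.3% and 15.7%, and over whole peaks in 3 of 9 distal TGFβ peaks (33.3%) and 1 of 9 distal vehicle peaks (11.1%), beside 20.2% and 22.1%. Besides the 3 matches at the Elf5 start, the SMAD string was at the Sox9 start in both lists, and in the TGFβ windows of 1 shared Ehf peak and of the shared Grhl2 peak. That made 1 of 15 vehicle windows (6.67%) and 4 of 17 TGFβ windows (23.5%), beside 14.1% and 18.3% of all windows. Over whole peaks it was in 6 of 15 vehicle (40.0%) and 9 of 17 TGFβ peaks (52.9%), beside 44.4% and 43.3%. Of the TGFβ-only peaks, 1 of 7 windows held it (14.3%), beside 28.4% of all such windows. In the whole TGFβ list it was in 25.6% of distal, 10.3% of promoter and 19.8% of TGFβ-only promoter windows. Matches to such short strings are not shown to be bound, and a missing match says nothing about the factor.

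The GC content of the member windows had a median of 49.0% in vehicle-only and 49.5% in TGFβ-only member peaks, beside 53.5% and 51.5% for all such peaks. For shared member peaks the medians were 56.2% in vehicle and 56.0% after TGFβ, beside 62.5% in both whole lists.

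Close relatives of these factors were described in the same way. The 21 relatives (of the ETS, Gata, Esr, Foxa, Tfap2, Grhl, p63 and Sox families) held 40 vehicle and 67 TGFβ peaks, with 2 vehicle-only and 24 TGFβ-only, beside 5 and 7 near the 10 genes. Summed over all protein-coding genes, 7624 of 52267 vehicle peaks were vehicle-only and 15223 of 60894 TGFβ peaks were TGFβ-only. Peaks near several genes were counted for each. A TGFβ-only peak lay near 13 relatives (61.9%), beside 50.0% of the 10 genes and 40.5% of all genes, and own-start peaks in both lists were found at 7 (33.3%), beside 30.0% and 43.8%. An own-start peak in 1 list alone, as at Elf5, Esr1 and Grhl2, was also found at the relatives Gata4 (TGFβ) and Tfap2a (vehicle) and at the mammary regulators Tbx3 (TGFβ) and Stat5b (vehicle), all 4 named after their values were seen. Grhl1, the relative of Grhl2, had the most TGFβ-only peaks, 4 of its 6, and Elf4 had 3 of 7. The 14 other mammary regulators, among them Stat5a, Cebpb and Ovol1, held 28 and 32 peaks, with 10 vehicle-only and 14 TGFβ-only, and Cebpb had 3 TGFβ-only of 5. In the sums for the relatives and the other mammary regulators, too, a peak near several genes was counted for each. Differences between these lists of genes were not tested.

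**Figure D4:**
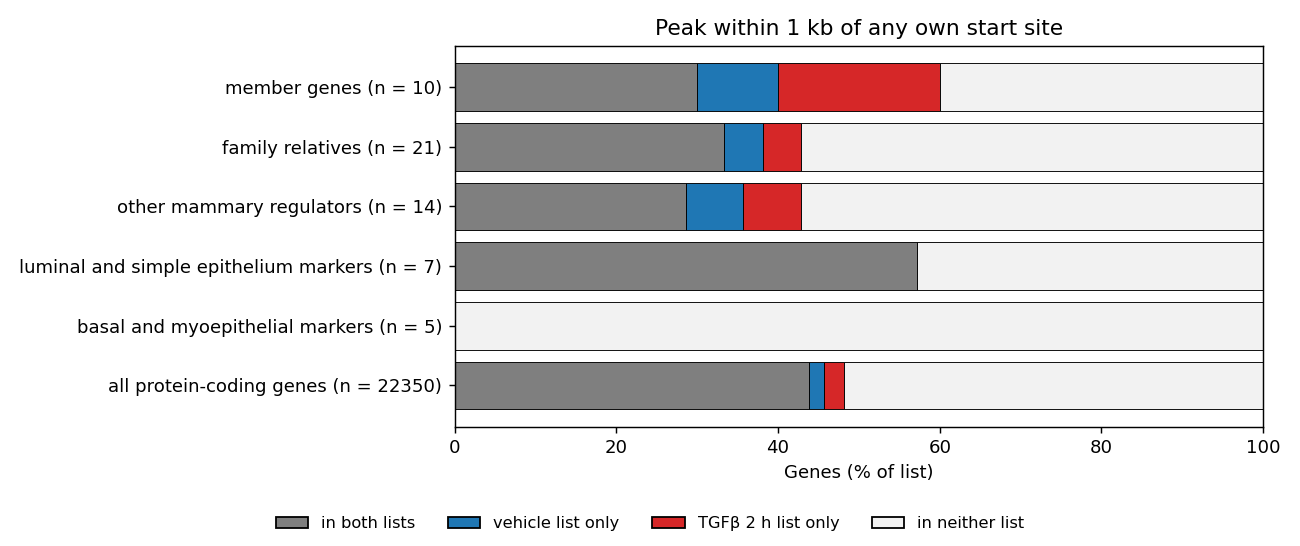
Share of genes (% of each list) with a peak within 1000 bp of any own start site in both lists, in 1 list alone or in neither, for the 10 member genes, 21 family relatives, 14 other mammary regulators, 7 luminal and 5 basal markers, and all 22350 protein-coding genes. The member genes have 30.0% in both lists and 40.0% in neither, beside 43.8% and 51.8% of all genes, and no basal marker has an own-start peak.

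Marker genes were checked against the label of a mammary epithelial line. The simple epithelial genes Cdh1 (E-cadherin), Krt8, Krt18 and Krt19 had own-start peaks in both lists, while Epcam, Cldn4 and Cldn7 had none at a start site but had peaks in their windows. None of the 5 basal and myoepithelial markers (Krt5, Krt14, Acta2, Myh11 and Oxtr) had an own-start peak in either list, and Trp63 likewise had none. Among markers of other cell types, the collagen gene Col1a1 had own-start peaks in both lists. The other 3 fibroblast, 3 endothelial and 4 immune markers had none at a start site, which was the state of 51.8% of all protein-coding genes. A peak in the window was found at 7 of 7 luminal, 3 of 5 basal, 2 of 4 fibroblast, 3 of 3 endothelial and 3 of 4 immune markers. The share over all protein-coding genes was 77.4%.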

How the data were processed

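DNaseI-seq peak lists of NMuMG cells given vehicle or TGFβ1 for 2 h were grouped by their titles, with 1 list per condition. According to the methods, the authors aligned reads to mm9 and used their ATAC-seq pipeline (MACS2 2.1.2, with an IDR filter between replicates stated for ATAC-seq) with DNaseI options that are not stated. The score that the authors deposited with each peak has no unit, and the lists give no read depth (the reporting summary's read numbers were not used). Intervals often span several deposited rows, which were collapsed to 17784 vehicle peaks (from 70449 rows) and 22600 TGFβ peaks (from 68542 rows).

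Gene models were those of GENCODE mouse release M1 on NCBIM37, whose chromosome lengths held all peaks but 1 in each list. Tfap2c was matched through a synonym in a RefSeq gene table, used for names alone. The genes, lists, motifs and alternatives were chosen with earlier results of these data known. Peaks named were all own-start peaks and up to 3 unshared peaks per gene by score. At Ehf the other 3 unshared peaks were named after their values were seen, as were the shared distal peaks. Sequences printed were those of own-start peaks where the lists differ and the highest-scoring TGFβ-only distal peak per gene, without that of Esr1 and with 1 vehicle-only Ehf peak added after its values were seen. From the relatives and other mammary regulators, the 3 genes with most TGFβ-only peaks were named, ties by name. Motifs were exact strings on both strands of the 200 bp around each midpoint, since the lists hold no summits. Analyses used Python 3.11.15, numpy 2.4.6, scipy 1.17.1 and matplotlib 3.10.9, and the overlap and counting steps were tested on simulated data. No column of other samples was present.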

Additional observations from a re-analysis of the deposited data

How the results depend on the processing

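Of 178 values under other settings, 144 moved by at most 1.5 times for a count or stayed within the interval for a share, 34 moved by more and 0 changed sign, which single counts and shares cannot do. The order of the lists, 15 vehicle and 17 TGFβ peaks with 5 and 7 unshared, turned in part: it was 15 and 13 with 7 and 5 unshared when the TGFβ list was cut to the vehicle length, and 12 and 12 with 5 and 5 without Elf3. No paired analysis was possible because there was a single list for vehicle and a single list for TGFβ, without tests. Where a setting counts fewer or more peaks by construction, the totals followed. With the main settings, 6 of 15 vehicle peaks (40.0%) and 8 of 17 TGFβ peaks (47.1%) were at promoters, beside 57.6% and 47.9% of the whole lists. Counting every deposited row gave 60 vehicle peaks with 10 vehicle-only and 44 TGFβ peaks with 14 TGFβ-only, which turned the order of the totals. Peaks that reached their list's median score (1000 and 927) were compared with the other list cut in the same way. They numbered 5 with 2 unshared in vehicle and 5 with 2 unshared after TGFβ. All of these TGFβ peaks (100%) were at promoters. Ceiling peaks, compared with the other list in full, numbered 5 in vehicle, 0 of them unshared (0%), and 4 after TGFβ (again fewer than in vehicle), 1 of them unshared, again with 100% at promoters. Within gene bodies alone there were 6 vehicle peaks with 2 vehicle-only (66.7% promoter) and 8 TGFβ peaks with 4 TGFβ-only, and members above the median density of all genes numbered 5 and 6 in place of 2 and 2. With 20 kb on either side there were 6 vehicle peaks with 2 vehicle-only (66.7% promoter) and 10 TGFβ peaks, and with 100 kb 27 TGFβ peaks, 12 of them TGFβ-only, and 4 members above the vehicle median density. Leaving out each gene in turn gave 8 to 15 vehicle peaks, 1 to 5 vehicle-only (12.5 to 41.7%) and 33.3 to 75.0% promoter. The lowest counts, the lowest vehicle-only share and the highest promoter share came without Ehf. For TGFβ the ranges were 12 to 17 peaks, 5 to 7 TGFβ-only (37.5 to 43.8%) and 40.0 to 66.7% promoter. With starts of protein-coding transcripts alone, chosen after seeing the data, 0 of 5 vehicle promoter peaks (0%) were unshared in place of 16.7%. An overlap of 50% of both peaks gave 6 vehicle-only and 8 TGFβ-only peaks. The AP-1 shares of unshared peaks (60.0% and 71.4%) were the same in 400 bp windows and whole peaks. Those of shared member peaks, 10 in each list, were 10.0% in both lists at 200 bp, near all shared peaks of the whole lists. At 400 bp they were 10.0% in vehicle, below the shared peaks of the whole list, and 30.0% after TGFβ, above them. Over whole peaks they were 50.0% and 60.0%, each above the shared peaks of its whole list. The lists give no depth, and read numbers in the study's reporting summary were not used, so a peak missing from 1 list cannot be told apart from a peak below the threshold there.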
